A study of Mus musculus with 8 samples.

Results

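The genes described here were 8 enzymes of cholesterol synthesis, *Hmgcs1*, *Mvd*, *Idi1*, *Fdft1*, *Sqle*, *Lss*, *Cyp51* and *Dhcr7*, found by gene name among the 53465 genes of the count table. Each name occurred once, and all 8 were among the 14301 genes with enough counts to be tested. They were measured by RNA-seq in 8 libraries of mouse pancreatic ductal adenocarcinoma (PDAC) cells. Although the group was proposed as genes of cholesterol synthesis and uptake, every one of the 8 acts in synthesis, so genes of uptake were taken from a separate list. The lines were B73 and B87, which came from primary pancreatic tumors of KC-shSmad4 mice of mixed strain background and were passaged repeatedly on collagen to lose non-tumor cells. In these mice *Ptf1a*-Cre, which acts in the pancreas, switched on the conditional alleles, among them an rtTA3 transactivator linked to mKate2 at *Rosa26*. Doxycycline (Dox) then induced a GFP-linked short hairpin RNA (shRNA) against *Smad4* from a cassette at the *Col1a1* locus. All libraries shared these alleles. Culture with Dox gave the Smad4-off state, and withdrawal of Dox for 5 days before plating gave the Smad4-on state. The inhibitor SB505124 blocks the kinase of the type I TGFβ receptor. From 24 h after plating, cells in either state received 100 pM TGFβ1 or 2.5 µM SB505124 for 24 h. Crossing these made 4 groups of 2 libraries, 1 from each line. A line carrying a control shRNA and cells without either agent were not part of these libraries. Withdrawal of Dox and restoration of *Smad4* therefore cannot be told apart here, nor can a change made by TGFβ1 and one made by SB505124.

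Cholesterol is built from acetyl-CoA through mevalonate. *Hmgcs1* makes HMG-CoA, the precursor of mevalonate, and *Mvd* and *Idi1* turn mevalonate into the isoprene units from which sterols and isoprenoids are made. *Fdft1* joins farnesyl units into squalene and so commits them to sterols, *Sqle* oxidises squalene, *Lss* closes the rings to give lanosterol, *Cyp51* removes a methyl group from lanosterol, and *Dhcr7* makes one of the last reductions before cholesterol. Most of these genes are induced together by the transcription factor SREBP2, encoded by *Srebf2*. When sterols are plentiful, INSIG proteins hold SREBP and its escort SCAP in the endoplasmic reticulum. When sterols run low, SREBP is cleaved, enters the nucleus and binds sterol response elements beside NF-Y at CCAAT boxes and SP1 at GC boxes. *Insig1* is itself a target of the same factor.

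Promoter sequences are shown for 4 of the enzymes and for *Insig1*, because the enzymes are known as a group under 1 factor and their changes below were unequal. *Lss*, *Dhcr7* and *Hmgcs1* had lower mRNA with *Smad4* on than with *Smad4* off under TGFβ1 and passed the test, *Cyp51* did not pass it, and *Insig1* passed with a fall of more than 2-fold. The sequences are those of RefSeq on GRCm38.p6, read 5′ to 3′ on the strand of the gene and ending before the first annotated exon base. Capitals mark matches to the 4 motifs named after them.
Hmgcs1, chr13:119690101-119690350, plus strand: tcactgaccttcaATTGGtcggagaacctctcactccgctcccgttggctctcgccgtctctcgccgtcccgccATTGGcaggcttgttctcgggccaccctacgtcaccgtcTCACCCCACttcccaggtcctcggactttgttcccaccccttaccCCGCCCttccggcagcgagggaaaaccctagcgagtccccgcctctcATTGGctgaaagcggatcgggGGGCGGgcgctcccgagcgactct
Lss, chr10:76531355-76531587, plus strand: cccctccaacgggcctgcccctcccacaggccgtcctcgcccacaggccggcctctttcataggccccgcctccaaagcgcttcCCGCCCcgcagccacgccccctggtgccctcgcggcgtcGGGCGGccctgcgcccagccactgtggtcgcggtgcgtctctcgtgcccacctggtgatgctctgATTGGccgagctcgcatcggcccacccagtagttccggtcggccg
Dhcr7, chr7:143822917-143823144, plus strand: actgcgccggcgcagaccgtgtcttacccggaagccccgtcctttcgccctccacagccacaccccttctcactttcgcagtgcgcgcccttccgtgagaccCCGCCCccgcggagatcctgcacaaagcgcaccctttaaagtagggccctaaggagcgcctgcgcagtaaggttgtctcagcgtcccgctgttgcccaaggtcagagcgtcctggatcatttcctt
Cyp51, chr5:4104747-4104947, minus strand: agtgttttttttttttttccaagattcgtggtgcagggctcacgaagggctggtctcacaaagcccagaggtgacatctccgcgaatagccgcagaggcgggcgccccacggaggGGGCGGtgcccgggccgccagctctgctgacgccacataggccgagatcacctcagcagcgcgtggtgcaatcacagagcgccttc
Insig1, chr5:28071162-28071362, plus strand: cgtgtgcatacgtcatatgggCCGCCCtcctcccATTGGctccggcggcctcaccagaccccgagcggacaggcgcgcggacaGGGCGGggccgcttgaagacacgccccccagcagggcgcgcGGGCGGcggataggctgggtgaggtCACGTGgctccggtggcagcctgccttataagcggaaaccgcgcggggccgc

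Motifs were searched on both strands, from 250 bases before each RefSeq start to 50 bases after it. The 4 motifs were a sterol response element (TCACNCCAC), the CACGTG E-box, the CCAAT box and the GC box GGGCGG, and no 2 matches shared a base in the members. RefSeq entries were found for 6 of the 8 members, with 3 starts for *Dhcr7*, and none for *Fdft1* and *Sqle*. The sterol response element as written occurred in 1 of the 8 promoters of these members, as TCACCCCAC from 137 to 129 bases before the *Hmgcs1* start, against 1.24% of all 32851 promoters. Of the 8, CCAAT occurred in 6 and GGGCGG in 7, against 37.4% and 35.7% of all promoters. *Cyp51* had its only CCAAT box 29 to 25 bases before the RefSeq start, inside the first annotated exon and so outside the printed stretch. The E-box occurred in the second *Dhcr7* promoter and 101 bases before the *Insig1* start, against 7.15% of all promoters. These matches describe the letters in the window and do not show binding.

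**Figure D1:**
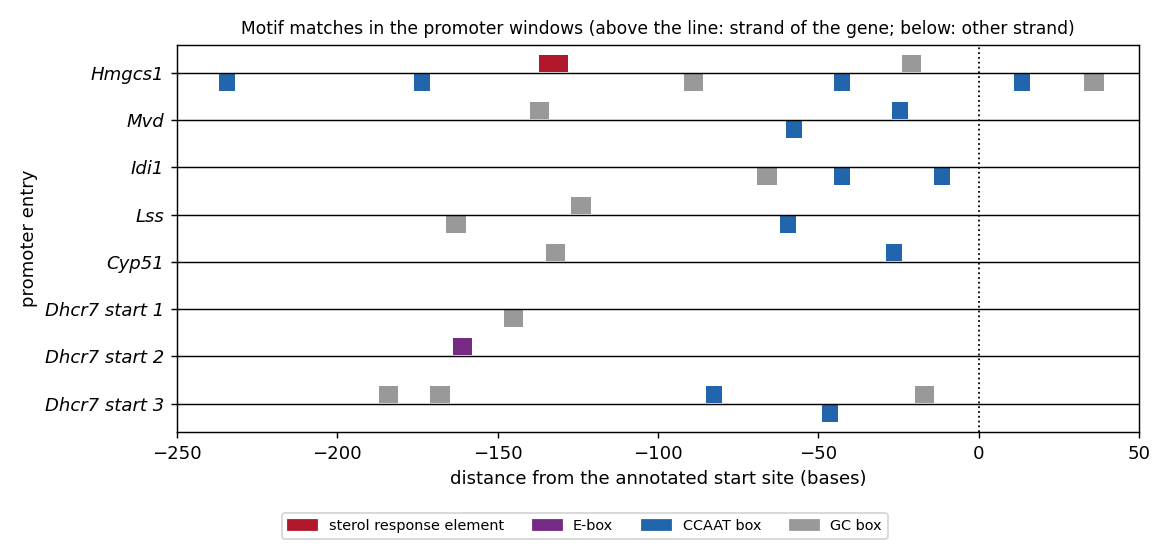
Matches to 4 motifs in the promoters of 6 members, with the distance from the RefSeq start in bases on the horizontal axis and 1 line per promoter. Blocks above a line are on the strand of the gene and blocks below it on the other strand, and the only sterol response element match among these promoters is in *Hmgcs1*.

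Library totals ran from 18389235 to 23440550 counts. CPM here are read counts brought to the same total in every library by TMM normalisation, and 3 counts, taken as the limit of detection, corresponded to 0.125 to 0.162 CPM. *Smad4*, the target of the shRNA, was at 35.1 ± 0.602 CPM in Smad4-off and 116.2 ± 1.06 CPM in Smad4-on cells under TGFβ1, and at 34.3 ± 0.870 and 105.6 ± 11.6 CPM under SB505124 (SD, n = 2). Epithelial markers of the carcinoma summed to 3944 to 6209 CPM in B73 and 1218 to 2109 CPM in B87. Among them *Epcam* was near the limit of detection, with 8 to 39 counts per library in B73 and 3 to 11 in B87. Of 6 fibroblast markers *Dcn* and *Lum* had at most 3 counts in every library, and the sum was 3.998 to 8.88 CPM in B73 and 43.9 to 646.9 CPM in B87. *Ptprc*, *Adgre1* and *Cd3e* of leukocytes and *Cpa1*, *Prss1* and *Amy2b* of acinar cells also had at most 3 counts in every library. The remaining leukocyte marker, *Cd68*, had 23 to 126 counts per library, and the remaining acinar marker, *Cela1*, had 8 to 32. Endothelial markers summed to 0.648 to 7.24 CPM in B73 and 2.66 to 26 CPM in B87.

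*Hmgcs1* (ENSMUSG00000093930) lies on chromosome 13 from 119690379 to 119708260 on the plus strand of GRCm38, and it opens the pathway at HMG-CoA synthase. In B73 it was at 219 CPM in Smad4-off and 166.2 CPM in Smad4-on cells under SB505124, and at 220.3 and 156.3 CPM under TGFβ1. In B87 the same libraries read 110.5, 93.2, 139.2 and 94.3 CPM. The Smad4-on library was the lower of its pair in both lines and under both agents, and all B73 libraries were above all B87 libraries. An antisense gene, *Gm48342*, shares 12.1% of its exon bases.

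*Mvd* (ENSMUSG00000006517), mevalonate diphosphate decarboxylase, lies on chromosome 8 from 122433601 to 122443422 on the minus strand. Its levels in B73 were 52.1 and 38.5 CPM under SB505124 (Smad4 off, then on) and 48.6 and 26.2 CPM under TGFβ1. B87 gave 16.8 and 14.0 CPM, then 21.5 and 15.7 CPM. Smad4-on libraries were again lower within every pair, but the lowest library was under TGFβ1 in B73 and under SB505124 in B87.

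*Idi1* (ENSMUSG00000058258), the isomerase that makes the second isoprene unit, lies on chromosome 13 from 8885501 to 8892451 on the plus strand and had the fewest counts of the 8, at 113 to 307 per library. It read 15.3, 11.4, 11.1 and 10.2 CPM in B73, in the order Smad4 off and on under SB505124 and then off and on under TGFβ1. The B87 values in that order were 6.63, 5.45, 5.98 and 5.76 CPM. Pairs differed little under TGFβ1, and the highest library of each line was Smad4 off under SB505124. Of its 75-base stretches of transcript, 16.7% also occurred in transcripts of *Gm13502* and *Gm35570*, so reads from them could not be assigned with certainty.

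*Fdft1* (ENSMUSG00000021273), squalene synthase, lies on chromosome 14 from 63145150 to 63179578 on the minus strand. B73 libraries held 129.1 (off) and 106.8 CPM (on) under SB505124 and 136.1 and 94.6 CPM with TGFβ1. B87 libraries held 63.4, 57.7, 78.9 and 52.4 CPM. The Smad4-on TGFβ1 library was the lowest of its line in both lines. Opposite-strand exons of *Ctsb* cover 18.3% of its exon bases, with 10004 to 15413 *Ctsb* counts per library, and the strand setting of the counting is not known. *Ctsb* itself had a log2 fold change of 0.19 for Smad4 on against off under TGFβ1, with an edgeR adjusted p of 0.323.

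*Sqle* (ENSMUSG00000022351), squalene epoxidase, lies on chromosome 15 from 59315077 to 59331192 on the plus strand. Under SB505124 it was at 205.5 (off) and 227.2 CPM (on) in B73, and at 123.7 and 120.8 CPM in B87. Under TGFβ1 the values were 195.7 and 178 CPM in B73 and 126.8 and 102.4 CPM in B87. Under SB505124 the lines went in opposite directions, and the Smad4-on TGFβ1 library was the lowest in each line.

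*Lss* (ENSMUSG00000033105), lanosterol synthase, lies on chromosome 10 from 76531588 to 76557138 on the plus strand. It was at 159.1 and 132.6 CPM in B73 under SB505124 (off, on) and at 157.3 and 97.9 CPM under TGFβ1. B87 showed 73.2 and 68.8 CPM, then 87.5 and 49.1 CPM. In both lines the Smad4-on TGFβ1 library stood below all others.

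*Cyp51* (ENSMUSG00000001467), the lanosterol demethylase, lies on chromosome 5 from 4081145 to 4104746 on the minus strand. Smad4-off and Smad4-on cells had 170.4 and 156.8 CPM in B73 and 94.7 and 79.8 CPM in B87 under SB505124. Under TGFβ1 they had 200.5 and 184.3 CPM in B73 and 132.7 and 99.8 CPM in B87. Unlike the other members, both TGFβ1 values were above the SB505124 values of the same *Smad4* state in both lines. Opposite-strand exons of *Akap9* (2482 to 3433 counts per library) cover 3.76% of its exon bases.

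*Dhcr7* (ENSMUSG00000058454), the reductase near the end of the route, lies on chromosome 7 from 143823145 to 143848410 on the plus strand. B73 cells had 57.4 CPM (Smad4 off) and 40.9 CPM (Smad4 on) under SB505124 and 45.3 and 23.4 CPM under TGFβ1. B87 cells had 29.2, 27, 25.1 and 13.0 CPM. Both lines had Smad4 off under SB505124 at the top and Smad4 on under TGFβ1 at the bottom, and the lowest B73 library fell within the B87 range.

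**Figure D2:**
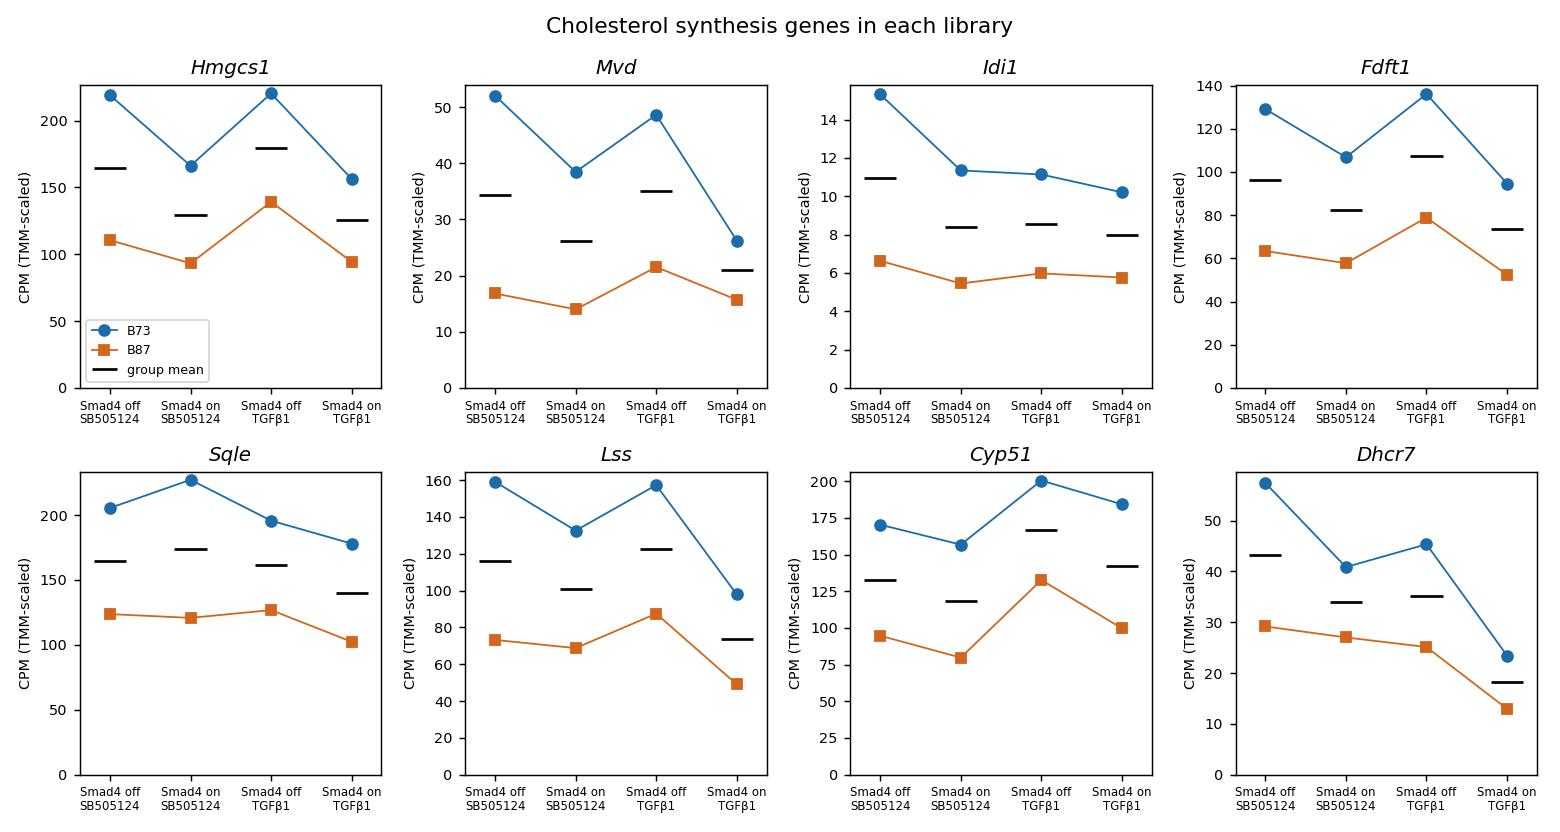
Levels of the 8 members in CPM (vertical axis from 0) in each library, by *Smad4* state and agent, with B73 as circles, B87 as squares and black bars at the mean of the 2 libraries of a group. B73 lies above B87 in every group, and *Lss* and *Dhcr7* are lowest in Smad4-on cells under TGFβ1.

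Levels of different genes were compared per kilobase. With the deposited gene lengths, which are the merged exons, medians over the 8 libraries were 32.8 CPM per kb for *Cyp51*, 32.2 for *Hmgcs1*, 27.5 for *Sqle*, 20.52 for *Fdft1*, 12.8 for *Mvd*, 8.59 for *Lss*, 4.83 for *Dhcr7* and 2.40 for *Idi1*. With the length of the principal transcript, *Sqle* moved to the top at 55.3 CPM per kb, before *Hmgcs1* at 42.7 and *Cyp51* at 36.8, while *Lss* rose to 19.9. *Idi1* was last on either scale, and the order of the leading members depended on the length used.

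Restoration of *Smad4* under TGFβ1 lowered 4 of the 8 mRNAs. *Dhcr7* fell from 35.2 ± 14.3 to 18.2 ± 7.41 CPM, *Lss* from 122.4 ± 49.4 to 73.5 ± 34.5, *Fdft1* from 107.5 ± 40.5 to 73.5 ± 29.9 and *Hmgcs1* from 179.7 ± 57.3 to 125.3 ± 43.8 CPM (SD, n = 2, a spread that holds the difference between the lines). For these 4 members the changes within the lines were close together. They passed a fit with the line as a term, which favours members whose changes agree between lines. The closeness is therefore no separate evidence. Smad4-on cells kept 51.7% of the Smad4-off *Dhcr7* level in B73 and 51.6% in B87, 62.2% and 56.1% of *Lss*, 69.5% and 66.4% of *Fdft1*, and 71.0% and 67.7% of *Hmgcs1*. From bulk RNA, fewer cells with a transcript and less of it per cell cannot be told apart.

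All libraries entered 1 edgeR quasi-likelihood fit with the line as a term, and a gene passed at a Benjamini-Hochberg adjusted p under 0.05 over all tested genes. Log2 fold changes (SE) were -0.95 ± 0.12 for *Dhcr7* (edgeR adjusted p 0.00764), -0.76 ± 0.089 for *Lss* (0.00613), -0.56 ± 0.086 for *Fdft1* (0.0142) and -0.53 ± 0.097 for *Hmgcs1* (0.0252). None of them passed the further rule of the study, a change of more than 2-fold. The members that did not pass were *Mvd* at -0.67 ± 0.20 (edgeR adjusted p 0.108), *Cyp51* at -0.27 ± 0.10 (0.177), *Sqle* at -0.22 ± 0.090 (0.194) and *Idi1* at -0.09 ± 0.17 (0.789). *Mvd* kept 53.94% of its Smad4-off level in B73 and 72.97% in B87, *Cyp51* 91.94% and 75.21%, *Sqle* 90.92% and 80.79%, and *Idi1* 91.62% and 96.38%. The median over the 8 was -0.54 on the log2 scale, against -0.007 over all tested genes, and all 16 changes within a line were below 0. Among all tested genes, 3.28% passed in the lower direction and 1.80% did so with more than 2-fold.

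The calls rested on comparing libraries within a line. In fits with no replicate block, that is without the line, 0 of the 8 passed in edgeR (0 at an unadjusted p under 0.05) and 0 in DESeq2 (1 at an unadjusted p under 0.05), although the log2 fold change of *Lss* was then -0.74 and that of *Dhcr7* -0.95 in edgeR. DESeq2 with the line passed 4. Among the TGFβ1 libraries, 1 member passed without the B73 Smad4-off library (*Lss*), 1 without the B73 Smad4-on library (*Lss*) and 1 without the B87 Smad4-off library (*Dhcr7*). Without the B87 Smad4-on library 3 passed, *Lss*, *Dhcr7* and *Mvd*, and *Mvd* was then over 2-fold. Markers that moved in the same comparison were *Col1a1* at 1.78 and *Kdr* at -3.35 on the log2 scale, and the epithelial sum was 1218 to 5790 CPM in Smad4-on and 1301 to 3944 CPM in Smad4-off libraries. None of 8 proliferation genes passed in edgeR (3 at an unadjusted p under 0.05, median log2 fold change -0.24). The part of these markers in the result was not tested.

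**Figure D3:**
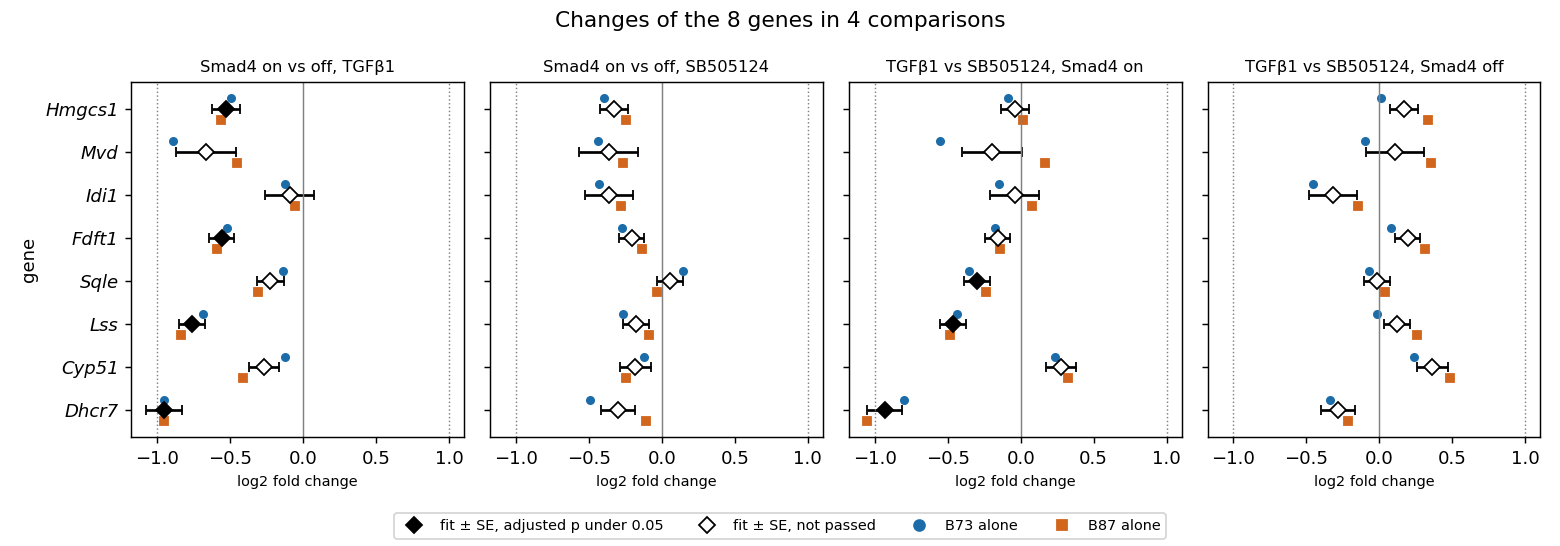
Log2 fold changes of the 8 members (horizontal axis) for *Smad4* on against off under TGFβ1 and under SB505124, and for TGFβ1 against SB505124 in each *Smad4* state, Smad4 on first. Diamonds are fitted values with SE bars, filled where the edgeR adjusted p was under 0.05, small symbols are each line alone and dotted lines mark a 2-fold change. Filled diamonds are *Hmgcs1*, *Fdft1*, *Lss* and *Dhcr7* in the first comparison and *Sqle*, *Lss* and *Dhcr7* in the third.

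With the receptor kinase inhibited, the median for *Smad4* on against off was nearer to 0. In that comparison 0 of the 8 passed in edgeR (3 at an unadjusted p under 0.05) or in DESeq2 with the line (1 unadjusted). Over all tested genes 1.59% passed in either direction. Log2 fold changes were -0.33 ± 0.097 for *Hmgcs1*, -0.36 ± 0.20 for *Mvd*, -0.36 ± 0.16 for *Idi1*, -0.30 ± 0.12 for *Dhcr7*, -0.21 ± 0.085 for *Fdft1*, -0.18 ± 0.088 for *Lss*, -0.18 ± 0.10 for *Cyp51* and 0.06 ± 0.090 for *Sqle* (SE), with edgeR adjusted p from 0.213 to 0.853. Their median was -0.26, against 0.003 over all tested genes, and 15 of 16 changes within a line were below 0, the exception being *Sqle* in B73. *Hmgcs1* kept 75.9% of its Smad4-off level in B73 and 84.3% in B87. *Dhcr7* kept 71.2% and 92.6%, a wider gap between lines than under TGFβ1.

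Whether the *Smad4* effect depended on the agent was tested as an interaction, in which 0.196% of all genes passed in either direction. No member passed in edgeR, and 3 were under 0.05 before adjustment. The difference between the *Smad4* effects was -0.58 ± 0.13 for *Lss* (edgeR adjusted p 0.182), -0.65 ± 0.17 for *Dhcr7* (0.244) and -0.35 ± 0.12 for *Fdft1* (0.353) on the log2 scale (SE). The signs were the same in both lines for these members, with *Lss* at -0.42 in B73 and -0.74 in B87 and *Dhcr7* at -0.46 and -0.84. *Lss* passed in DESeq2 with the line and in edgeR without the filter on low counts. A larger effect under TGFβ1 than under SB505124 was thus not established for any member in the edgeR fit.

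TGFβ1 was next compared with SB505124 within each *Smad4* state. This uses the Smad4-on TGFβ1 libraries a second time, so a low value there lowers both comparisons. In Smad4-on cells the log2 fold change was -0.93 ± 0.12 for *Dhcr7* (SE, edgeR adjusted p 0.00174), -0.46 ± 0.089 for *Lss* (0.00837) and -0.30 ± 0.090 for *Sqle* (0.0424), and these members passed. TGFβ1-treated cells kept 57.4% of the SB505124 level of *Dhcr7* in B73 and 48.0% in B87, 73.8% and 71.3% of *Lss*, and 78.3% and 84.8% of *Sqle*. *Cyp51* went the other way in both lines, to 117.5% and 125.1%, and did not pass (log2 fold change 0.28 ± 0.10, edgeR adjusted p 0.0824). *Fdft1* was at -0.16 ± 0.086. *Hmgcs1* (-0.04 ± 0.097), *Mvd* (-0.19 ± 0.21) and *Idi1* (-0.04 ± 0.17) had opposite signs in the lines, and *Mvd* was at -0.55 in B73 and 0.17 in B87.

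The 3 members that fell stood against 17.6% of all tested genes that passed in the lower direction, and none was over 2-fold, as 8.31% of all genes were. With no replicate block 0 passed in edgeR and in DESeq2. Leaving out any 1 of the 8 libraries left 1 or 2 members, with *Sqle* lost each time. The 1 member left without the B87 Smad4-on SB505124 library was *Dhcr7*, and without the B73 one *Dhcr7* was over 2-fold. Other genes moved with TGFβ1 in the same cells. Of the 8 proliferation genes 7 fell (median -0.57), with *Mki67* at -1.09. Of 7 epithelial markers *Krt19* (-2.33) and *Cdh1* (-2.31) fell, while 3 had values above 0 (highest 0.74) and did not pass. *Col1a1* (2.43) and *Cdh5* (3.79) rose, the latter from 3 counts in B73 and 4 in B87 under SB505124. Their part in the change of the members was not tested.

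In Smad4-off cells 0 of the 8 passed (2 at an unadjusted p under 0.05, edgeR), against 13.2% of all tested genes in either direction. *Cyp51* was at 0.36 ± 0.10 on the log2 scale (SE, edgeR adjusted p 0.0641), higher with TGFβ1 in both lines, and it passed in DESeq2 with the line, without the filter on low counts and in a fit of only the 4 libraries compared. *Dhcr7* was at -0.28 ± 0.12 (edgeR adjusted p 0.167) and *Idi1* at -0.32 ± 0.16 (0.262), both lower in each line. *Hmgcs1* (0.17), *Fdft1* (0.19), *Lss* (0.12), *Mvd* (0.11) and *Sqle* (-0.02) completed the set. The median was 0.11 in these cells and -0.18 in Smad4-on cells, against -0.017 and -0.019 over all tested genes.

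The other 13 enzymes of the pathway came from a list that was chosen, like the members, with earlier results of these data known. For *Smad4* on against off under TGFβ1 all 13 were below 0, with a median log2 fold change of -0.39. Together with the 8 members, already given as lower, they made 21 enzymes, all with lower values and a median of -0.43. This count is therefore not independent of the results above. Among all 14301 tested genes 7306 were below 0 and 3.28% passed in the lower direction. Of the 21, 8 passed, the 4 members and 4 others. With no replicate block 0 passed in edgeR (0 at an unadjusted p under 0.05) and 0 in DESeq2 (1 unadjusted), and the values were still below 0 for all 21. Without 1 of the libraries compared the number that passed was 1 to 5, the 1 being found without either Smad4-off TGFβ1 library and without the B73 Smad4-on one.

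The 4 others, chosen for naming after their values were seen, were *Tm7sf2* (-0.99 ± 0.22, edgeR adjusted p 0.0475), *Nsdhl* (-0.71 ± 0.12, 0.0217), *Fdps* (-0.67 ± 0.15, 0.0459) and *Acat2* (-0.66 ± 0.14, 0.0384). *Acat2* makes acetoacetyl-CoA, *Fdps* makes farnesyl diphosphate, and *Nsdhl* and *Tm7sf2* act on sterols after lanosterol, so the enzymes that passed came from the beginning, the middle and the end of the route. Under SB505124 none of the 21 passed in edgeR (5 at an unadjusted p under 0.05) or in DESeq2 with the line (3 unadjusted), and 18 were below 0.

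With TGFβ1 in Smad4-on cells 2 of the 13 other enzymes rose and 2 fell, near the 33.2% of all genes tested that passed in either direction. *Hsd17b7* rose (log2 fold change 0.47 ± 0.12, edgeR adjusted p 0.0229), *Ebp* fell (-0.55 ± 0.081, 0.00283) and *Lbr* fell by more than 2-fold (-1.08 ± 0.099, 0.00043). *Hsd17b7* and *Ebp* were named after their values were seen. *Lbr* encodes both a nuclear envelope protein and a sterol reductase, and it was at 184 CPM with SB505124 and 91.8 CPM with TGFβ1 in B73 and at 162.5 and 72.6 CPM in B87. It kept its call with no replicate block (edgeR adjusted p 0.0106), whereas *Hsd17b7* (0.267) and *Ebp* (0.125) did not pass. In Smad4-off cells, where 13.2% of all genes tested passed, *Nsdhl* (0.55) and *Hsd17b7* (0.83) rose and *Lbr* (-0.79) fell. None of these calls held in edgeR with no replicate block (adjusted p 0.626 for *Nsdhl*, 0.19 for *Hsd17b7* and 0.0717 for *Lbr*). In DESeq2 with no replicate block *Lbr* (adjusted p 0.000241) and *Hsd17b7* (0.0455) passed and *Nsdhl* (0.628) did not.

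Genes that control SREBP were led by *Insig1*, which retains SREBP in the endoplasmic reticulum. It was at 207.1 (off) and 96.9 CPM (on) in B73 and 131.5 and 53.4 CPM in B87 under TGFβ1. Under SB505124 it was at 248.4 and 136.3 CPM in B73 and 118 and 91.3 CPM in B87. The fall with *Smad4* under TGFβ1 was over 2-fold, at -1.197 ± 0.128 (log2 fold change, SE, edgeR adjusted p 0.00431, 0.372 with no replicate block), and under SB505124 the value was -0.62 ± 0.13 (0.0777). Between these effects the difference was -0.57 ± 0.18 (edgeR adjusted p 0.314).

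The factors themselves did not pass. *Srebf2* was at -0.14 ± 0.082 (edgeR adjusted p 0.346) and *Srebf1* at -0.29 ± 0.10 (0.149) for *Smad4* under TGFβ1. *Srebf2* was at 329.8 and 311.7 CPM in B73 and 234.3 and 203.4 CPM in B87 in that comparison, off before on. Of the 7 control genes *Insig1* alone passed there in edgeR, and none did under SB505124 (2 at an unadjusted p under 0.05). In Smad4-on cells *Insig1* (-0.64 ± 0.13, edgeR adjusted p 0.00967, 0.441 with no replicate block) and *Insig2* (-0.57 ± 0.10, 0.00677) were lower with TGFβ1 than with SB505124. *Insig2* was named after its values were seen. No control gene passed in edgeR for TGFβ1 in Smad4-off cells (1 unadjusted).

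**Figure D4:**
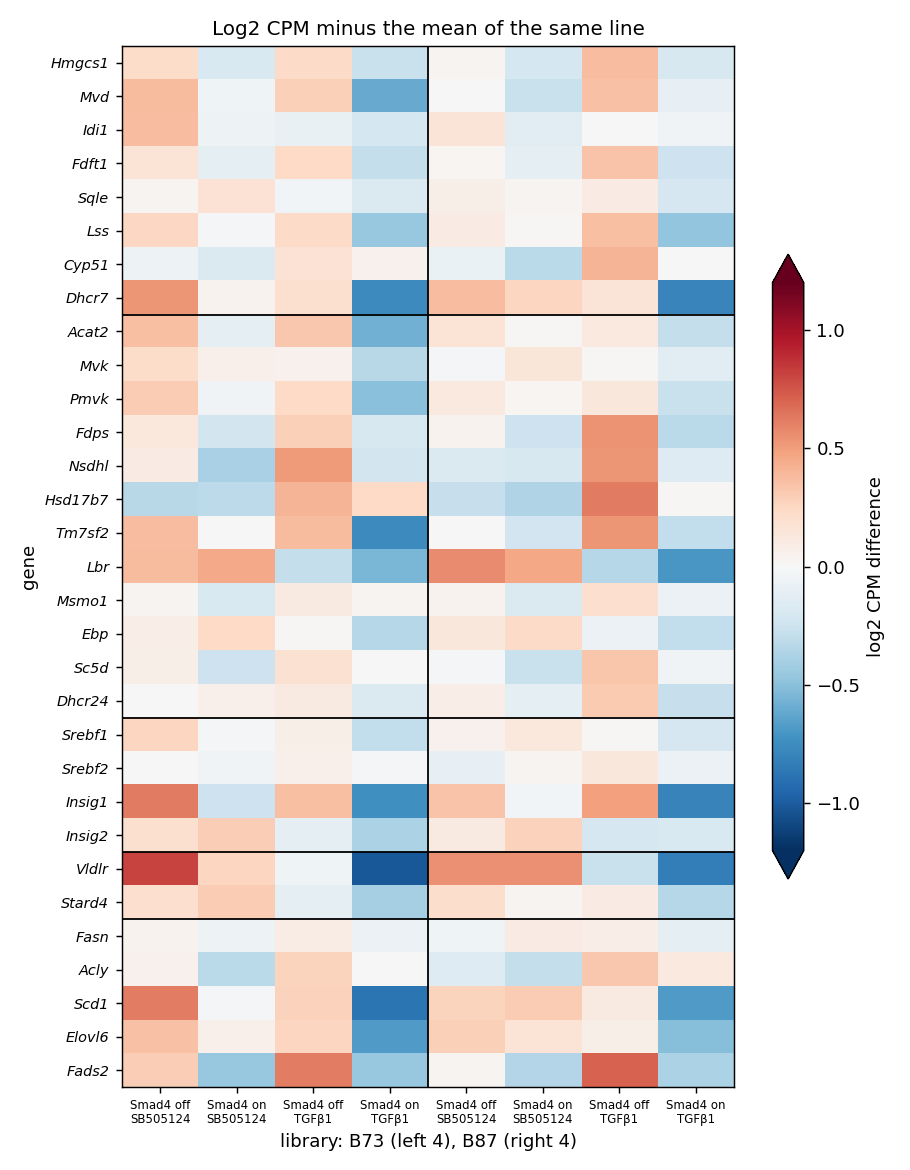
Log2 CPM of 31 genes (rows) in the 8 libraries (columns, B73 left and B87 right), each minus the mean of its line, for the members, the other synthesis enzymes and genes of SREBP control, uptake and fatty acid synthesis. Blue is below and red above the mean of the line, and most synthesis enzymes and *Insig1* are blue in the Smad4-on TGFβ1 columns.

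Of 10 genes of sterol uptake and intracellular transport 2 passed for *Smad4* under TGFβ1 and both fell, against 0 under SB505124 in edgeR (4 at an unadjusted p under 0.05). Among all tested genes 3.28% passed in the lower direction under TGFβ1. The 2 that fell included *Vldlr*, which encodes a lipoprotein receptor (log2 fold change -0.76 ± 0.16, edgeR adjusted p 0.0375, 0.287 with no replicate block). The median of the 10 was -0.15. With TGFβ1 in Smad4-on cells 1 of the 10 rose and 3 fell, where 33.2% of all genes tested passed in either direction. *Vldlr* (-1.33 ± 0.16, edgeR adjusted p 0.00124) and *Lipa*, the lysosomal acid lipase (-1.87 ± 0.24, 0.00177), were more than 2-fold lower with TGFβ1 than with SB505124. Both passed with no replicate block. *Stard4* (-0.55) fell and *Npc1* (0.35) rose, both named after their values were seen, with edgeR adjusted p of 0.45 and 0.124 with no replicate block. With *Smad4* off, *Lipa* (-1.14) and *Vldlr* (-0.84) fell, with edgeR adjusted p of 0.113 and 0.154 with no replicate block. In DESeq2 with no replicate block both passed (adjusted p 0.00241 and 0.023).

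Lists of neighbouring pathways were set beside the members. Of 10 genes of efflux, LXR and esterification 7 could be tested. None passed for *Smad4* under TGFβ1 in edgeR (0 at an unadjusted p under 0.05), and *Nr1h3* (-2.94 ± 0.47, edgeR adjusted p 0.004) and *Soat2* (-2.40 ± 0.37, 0.00357) fell with TGFβ1 in Smad4-on cells from low levels, with 5 to 73 and 7 to 141 counts per library. With no replicate block the edgeR adjusted p was 0.0196 for *Nr1h3* and 0.115 for *Soat2*, and the DESeq2 adjusted p was 0.000539 and 0.0438. *Nr1h3* encodes LXRα and *Soat2* an enzyme that esterifies cholesterol. None of 8 genes of the isoprenoid branch, which leaves the route before *Fdft1*, passed for *Smad4* under TGFβ1 (2 unadjusted, edgeR), and their median was 0.09.

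Fatty acid synthesis, which SREBP also serves, was lower for all 10 genes in that comparison, with a median of -0.58. Among all tested genes the median was -0.007, and 3.28% passed in the lower direction. *Fads2*, a fatty acid desaturase, fell by more than 2-fold (-1.09 ± 0.11, edgeR adjusted p 0.00387, 0.535 with no replicate block), with 147.9 (off) and 70.1 CPM (on) in B73 and 74.2 and 34.8 CPM in B87. *Scd1* (-0.97 ± 0.16, 0.019) and *Elovl6* (-0.77 ± 0.10, 0.00943) also fell, with 0.592 and 0.473 with no replicate block. None of the 10 passed for *Smad4* under SB505124 in edgeR (2 unadjusted). With TGFβ1 in Smad4-on cells 4 of the 10 fell and *Acly*, named after its value was seen, rose. There 17.6% of all tested genes passed in the lower direction and 33.2% in either direction. *Acss2* fell by more than 2-fold (-1.75 ± 0.34, edgeR adjusted p 0.0084).

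For 7 of the 8 members, all but *Dhcr7*, the fitted difference between the lines was larger in size than any fitted change between conditions. All 8 were lower in B87 than in B73 and passed, with log2 differences of -1.26 ± 0.15 for *Mvd*, -0.9996 ± 0.118 for *Idi1*, -0.98 ± 0.063 for *Lss*, -0.89 ± 0.061 for *Fdft1*, -0.82 ± 0.074 for *Cyp51*, -0.82 ± 0.084 for *Dhcr7*, -0.80 ± 0.069 for *Hmgcs1* and -0.77 ± 0.064 for *Sqle* (SE, edgeR adjusted p from 0.000171 to 0.0018). Each p compares these 2 lines over 4 conditions, and lines in general were not sampled. Among all tested genes 9.68% passed in this direction and 4.50% with more than 2-fold, a rule that *Mvd* met. The sum of the 8 was 770.9 to 1015 CPM in B73 and 432.3 to 617.6 CPM in B87.

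Within a condition the B73 level was 1.67 to 3.09 times the B87 level for *Mvd*, 1.80 to 2.17 times for *Lss* and 1.54 to 1.88 times for *Sqle*. For 7 of the 8 every B73 library was above every B87 library, which held for 5.25% of all tested genes, and *Dhcr7* was the exception. Leaving out 1 library left 1 to 3 members over 2-fold, 3 without either Smad4-off TGFβ1 library and 2 without either Smad4-on TGFβ1 library. The number was 2 with DESeq2 size factors.

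The line difference, in which 9.68% of all tested genes were lower in B87 and passed, reached past the members. Of the 21 synthesis enzymes 20 were lower in B87 and passed, the exception being *Lbr* (-0.19, edgeR adjusted p 0.11), and *Fdps* was over 2-fold at -1.06 ± 0.11. *Insig1* (-0.79), *Srebf2* (-0.57) and *Srebf1* (-0.26) were lower in B87, with edgeR adjusted p of 0.00148, 0.00102 and 0.0473. *Soat2* differed by -1.24 ± 0.27, and *Lrp1*, a lipoprotein receptor, was higher by 1.64 ± 0.27. In fatty acid synthesis 9 of 10 were lower, with *Scd1* (-1.18), *Scd2* (-1.10) and *Fads2* (-1.09) over 2-fold. None of the isoprenoid branch genes and none of the proliferation genes passed in edgeR (0 and 0 at an unadjusted p under 0.05).

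Markers of cell type differed between the lines too. B87 had less *Krt7* (-4.87), *Krt8* (-2.51), *Cdh1* (-2.06), *Krt18* (-1.10) and *Krt19* (-0.99) on the log2 scale, and more *Col1a1* (6.75), *Pdgfrb* (4.64), *Pdgfra* (2.63) and *Kdr* (1.998), while *Col1a2* was lower (-4.03). The shRNA cassette of these cells sits at the *Col1a1* locus. The part of these differences in the levels of the members was not tested. No member passed when the effects of *Smad4* or of TGFβ1 were compared between the lines (0 and 1 at an unadjusted p under 0.05, edgeR), against 0.406% and 0.00% of all tested genes.

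The profiles of the members over the 8 libraries were compared after the mean of each line was removed. Pearson's r of a member with the mean of the other members was 0.954 for *Lss*, 0.946 for *Fdft1*, 0.902 for *Hmgcs1*, 0.877 for *Mvd*, 0.733 for *Dhcr7*, 0.61 for *Sqle*, 0.589 for *Idi1* and 0.271 for *Cyp51*. These describe 8 libraries that share their conditions, and no test was made. *Cyp51* stood apart through its higher TGFβ1 values. The Smad4-on TGFβ1 library was the lowest of its line in both lines for 4 of the 8, *Fdft1*, *Sqle*, *Lss* and *Dhcr7*, against 22.5% of all tested genes.

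On the same measure the tested genes most like the mean of the 8 members were *Thbs3* (r = 0.988), *Ly6e* (0.981), *Zfp512* (0.978), *Gm45094* (0.973) and *Sprr1a* (0.973). *Gm45094* was at 0.635 CPM on average, so its likeness rests on few counts. *Sprr1a* and *Thbs3* changed more than any member for *Smad4* under TGFβ1, at -2.54 and -2.26 on the log2 scale. From the pathway lists the highest were *Insig1* at r = 0.969, *Tm7sf2* at 0.958, *Pmvk* at 0.935 and *Acat2* at 0.918. Other listed genes were less alike. Among synthesis enzymes *Hsd17b7* was at 0.146, *Lbr* at 0.378 and *Ebp* at 0.503, and *Npc1* of the transport genes was at -0.66.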

How the data were processed

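RNA-seq was performed by the authors on 8 libraries of PDAC lines B73 and B87. The labels of the samples gave line, Dox state and agent, and so the groups. The authors made stranded poly(A) libraries, sequenced 75-base single-end reads, trimmed them with Trimmomatic 0.36, aligned them to GRCm38 (mm10) with STAR 2.5.3a, counted them per gene with featureCounts 1.6.3 and checked quality with FastQC 0.11.5, with versions from the submitters' processing notes. Settings for strand and for reads with several alignments are not given in the sources used here, so overlapping genes and close copies are less certain. The deposited table holds raw counts of 53465 genes, with no pooling. It was used as deposited, and no row lacked a gene name.

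Counts were tested with edgeR 4.0.16 in R 4.3.3 (TMM, filterByExpr, quasi-likelihood F-test), with the 4 groups and the line as terms in 1 model of all 8 libraries. SE was taken as |log2 fold change| over √F, an approximation. Values for a line alone used log2 CPM with a prior count of 2. The study used DESeq2 and names no covariate; the line was added since both lines were grown in every condition, and the line named in the sample titles gives the pairing. Over 6 pairs of groups, the line differences of all tested genes had correlations of 0.642 to 0.774 (median 0.758). The sources do not say that libraries came from separate cultures or days beyond the line, so p-values measure the spread between these libraries, which may be technical. Limits of detection (3 counts) cover counting error only, since PCR copies cannot be told apart.

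Alternatives were DESeq2 1.42.0 with the line, DESeq2 and edgeR with no replicate block, DESeq2 size factors in edgeR, no filter on low counts, no fold-change rule, a fit of the 4 libraries compared, and leaving out each library in turn. A left-out library leaves its group with 1 library, which is then assumed to vary like the others. The scripts were tested on simulated data.

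The members and all lists were chosen with earlier results of these data known. Named genes were the members, *Smad4*, *Srebf1*, *Srebf2*, *Insig1*, list genes over 2-fold with adjusted p under 0.05 in any comparison, and the 5 most alike genes. Other names are given as seen after the values. Some list genes that the rule would name are not reported here, and counts and medians of the lists include them. Loci were those of the deposited table and equalled GENCODE M21 for the members. Promoters were those of RefSeq, GRCm38.p6.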

Additional observations from a re-analysis of the deposited data

Results flagged for a closer look

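*Lrp1*, a lipoprotein receptor of the uptake list, differed between Smad4-on and Smad4-off cells in opposite directions in the lines. In B73 it was at 239.5 (Smad4 off) and 170.4 CPM (on) under SB505124 and at 476.1 and 301.9 CPM under TGFβ1. In B87 it was at 439.2 and 719 CPM, then 1024 and 1702 CPM. The *Smad4* effect was -0.66 in B73 and 0.73 in B87 under TGFβ1 and -0.49 and 0.71 under SB505124 on the log2 scale. The difference in the *Smad4* effect, averaged over both agents, was 1.297 ± 0.173 (SE, edgeR adjusted p 0.0457), B87 minus B73, and 1.292 to 1.311 under both alternatives run. In all, 0.406% of tested genes passed this test. No member of the synthesis group did so.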

How the results depend on the processing

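For *Smad4* under TGFβ1, 4 members passed at an adjusted p under 0.05. With no replicate block 0 passed in DESeq2 and 0 in edgeR, whereas 5 passed with no filter on low counts and 5 in the fit of 4 libraries, with *Mvd* added each time. For TGFβ1 in Smad4-on cells, 3 passed and the same fits gave 0 and 0. None of the 4 and 3 was over 2-fold, so with no fold-change rule the numbers called were 4 and 3, and 8 in place of 1 for the line difference, which was 2 with DESeq2 size factors and 2 in DESeq2 with the line. For TGFβ1 in Smad4-off cells 1 member passed in place of 0 in DESeq2 with the line, with no filter on low counts and in the fit of 4 libraries (*Cyp51* each time), and for the interaction 1 passed in place of 0 in DESeq2 with the line and with no filter (*Lss*). Over the 8 fits that left out 1 library, members passing numbered 1 to 4 for *Smad4* under TGFβ1 (0 to 1 over 2-fold), 1 to 2 for TGFβ1 in Smad4-on cells (0 to 1 over 2-fold), and 1 to 3 over 2-fold for the line difference. No left-out library reversed a member value that had passed. Values that had not passed and changed sign with a library left out ranged, on the log2 scale, from -0.20 to 0.0295 for *Idi1* (*Smad4* under TGFβ1), from -0.0462 to 0.16 for *Sqle*, -0.23 to 0.0347 for *Srebf1* and -0.0229 to 0.11 for *Srebf2* (*Smad4* under SB505124), from -0.0837 to 0.0125 for *Hmgcs1*, -0.53 to 0.15 for *Mvd* and -0.15 to 0.0787 for *Idi1* (TGFβ1, Smad4 on), from -0.11 to 0.38 for *Mvd*, -0.0963 to 0.0765 for *Sqle*, -0.23 to 0.0312 for *Srebf1* and -0.23 to 0.14 for *Insig1* (TGFβ1, Smad4 off), and from -0.65 to 0.029 for *Mvd* and -0.24 to 0.057 for *Cyp51* (interaction). Of 640 values of single members under an alternative, 585 kept sign and side of the threshold, 35 lost the call, 8 gained it and 12 changed sign. The causes were not tested. With 2 lines the design could not separate a line from its tumor. Among the members the standard error of the *Smad4* effect under TGFβ1 was largest for *Mvd* (0.20) and *Idi1* (0.17).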
